A study of Mus musculus with 59 samples.

Results

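Oxidative phosphorylation subunits were followed at the transcript level in cultured microglia of the mouse, which are macrophages that live in brain tissue. The 96 genes were taken by symbol: complex I (Nduf genes), complex II (Sdha to Sdhd), complex III (Uqcr genes), complex IV (Cox5 to Cox8 isoform genes) and complex V (Atp5 genes) from the nucleus, and the mt-Nd, mt-Co, mt-Atp and mt-Cytb genes from mitochondrial DNA. They made up 83 nuclear and 13 mitochondrial genes of 32070 genes in the tables, and 12 pseudogenes matched by symbol were left out. By nuclear count, complex I had 38 members, complex II 4, complex III 8, complex IV 16 (with Ndufa4 and Ndufa4l2, which are named for complex I but belong with complex IV) and complex V 17. The mitochondrial genes comprised 7 of complex I, 1 of complex III, 3 of complex IV and 2 of complex V. Cox4i1, Ndufab1 and Cyc1 encode further subunits whose symbols the selection did not match.

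Microglia came from pups at postnatal day 0 or 1 and were of 3 genotypes. WT was Tbk1fl/fl without Cre, HET was Tbk1fl/+ with Cx3CR1-Cre and KO was Tbk1fl/fl with Cx3CR1-Cre, so every culture carried a floxed allele, and WT differed from the other genotypes in Cre as well. Cells were plated for 16 h and then kept for 24 h untreated (UT), with 100 ng/mL of the bacterial outer membrane glycolipid lipopolysaccharide (LPS), with 20 ng/mL interleukin-4 (IL4), or with pIC, which is poly(I:C) and mimics the RNA of a virus. The sources used here give no dose for pIC. The 59 libraries formed 12 groups of 5 cultures, independent within a group. Untreated WT is the exception, at 4 libraries, since its replicate 5 is not analysed here. Between groups, cultures of the same replicate number deviated together on average, which the main fits did not model. Cx3CR1 drives Cre in microglia and also in other macrophages, and recombination need not reach every cell of a culture.

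Oxidative phosphorylation passes electrons from NADH through complex I, or from succinate through complex II, to complex III and then to oxygen at complex IV. Complexes I, III and IV pump protons, and complex V uses the gradient to make ATP. Complex II is encoded by the nucleus alone, whereas the other complexes join nuclear subunits to subunits made on mitochondrial ribosomes from mitochondrial DNA. Macrophages given LPS are known to turn towards glycolysis, and those given IL4 are known to rely on mitochondrial respiration.

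Nuclear subunit genes are known for promoters that bind NRF1 (nuclear respiratory factor), GABPA of the ETS family and YY1. Promoters of 66 of the 83 nuclear members were matched in RefSeq (GRCm38.p6, the build called mm10), each covering 250 bases before and 50 after the start (the first start listed, for the 5 members with more than 1). On either strand, the NRF1 motif, whose letters are the capitals below with any base allowed at the sixth, was found in 16 of 66 (24.2%), against 4.78% of all 27025 promoters of this length and 10.3% of 10830 promoters of genes tested here. The ETS motif CCGGAAG was found in 16 (24.2%, against 9.12% and 17.8%) and the YY1 motif AAGATGGCG in 6 (9.09%, against 1.49% and 3.15%), and 33 promoters held at least 1 of the 3. The windows below are shown because these members recur in the results: their transcripts differed between KO and WT under LPS, and Sdha, Sdhd or Ndufa5 also differed with IL4 or pIC. Capitals mark the NRF1 motif, and all windows lie on the minus strand before the start used and read 5′ to 3′ along the gene's strand. They cover chr5:108434415-108434474 for Atp5k, chr16:37654525-37654584 for Ndufb4, chr6:24527682-24527741 for Ndufa5, chr13:74350304-74350363 for Sdha and chr9:50603894-50603953 for Sdhd.
Atp5k: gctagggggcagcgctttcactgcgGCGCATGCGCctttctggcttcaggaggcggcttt
Ndufb4: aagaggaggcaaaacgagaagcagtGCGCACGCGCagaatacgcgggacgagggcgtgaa
Ndufa5: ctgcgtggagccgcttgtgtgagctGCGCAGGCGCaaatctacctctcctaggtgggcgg
Sdha: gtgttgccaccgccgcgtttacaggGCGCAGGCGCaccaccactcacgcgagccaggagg
Sdhd: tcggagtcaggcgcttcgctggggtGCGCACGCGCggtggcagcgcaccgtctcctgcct
The motif shown sits at bases -50 to -41 from the start in Atp5k, -191 to -182 in Ndufb4, -98 to -89 in Sdha and -79 to -70 in Sdhd. In Ndufa5 it sits at -190 to -181 from the start used, at base 24527526, and at -26 to -17 from a second RefSeq start at base 24527690, which lies inside the window shown. Ndufb4 and Sdha hold further matches nearer the start. A match of letters is a description of the window, not of a bound site.

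Values are TPM, a length-scaled share of each library. They carry no sequencing depth, and any abundant gene that rises pulls down the values of the rest. The libraries held 12428 to 14581 genes at 1 TPM or more, and the 50 most abundant genes took 23.4% to 38.3% of the summed TPM. Tbk1, the targeted kinase gene, followed the labels: under LPS it was at 90.9 ± 8.37 TPM in WT and 18.0 ± 5.15 in KO (SD, n = 5 each; log2 difference -2.31, adjusted p = 4.24e-16), although a sum over all exons does not show the deleted exon. Among 17 microglial markers, 16 or 17 had a mean of at least 1 TPM in every group, and their sum was 13328 to 17239 TPM in untreated cultures of the 3 genotypes and 3530 to 7581 under LPS. Transcripts of the oligodendrocyte lineage were present throughout (14 markers summing to 189 to 2830 TPM over all libraries), and those of astrocytes and neurons stayed at or below 438 and 333 TPM. In such bulk samples, fewer cells of a type and less RNA per cell cannot be told apart.

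The nuclear members held 0.883% to 1.68% of the TPM of a library, and the 13 mitochondrial genes 1.14% to 8.24%. In untreated cultures the nuclear share was 1.34% to 1.59% in WT, 1.34% to 1.58% in HET and 1.19% to 1.46% in KO, so the genotypes overlapped. With LPS it was 0.934% to 1.10% in WT and 0.883% to 1.14% in HET, below every untreated library of the same genotype, but 1.25% to 1.42% in KO. Every KO library with LPS lay above every WT and HET library with LPS and inside the untreated KO range. With IL4 the share was 1.39% to 1.68% in WT, 1.26% to 1.68% in HET and 1.48% to 1.66% in KO. In the pIC table, which was made separately and was not tested against the others, it ran from 1.12% to 1.29% for WT, from 1.08% to 1.23% for HET and from 0.989% to 1.19% for KO.

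**Figure D1:**
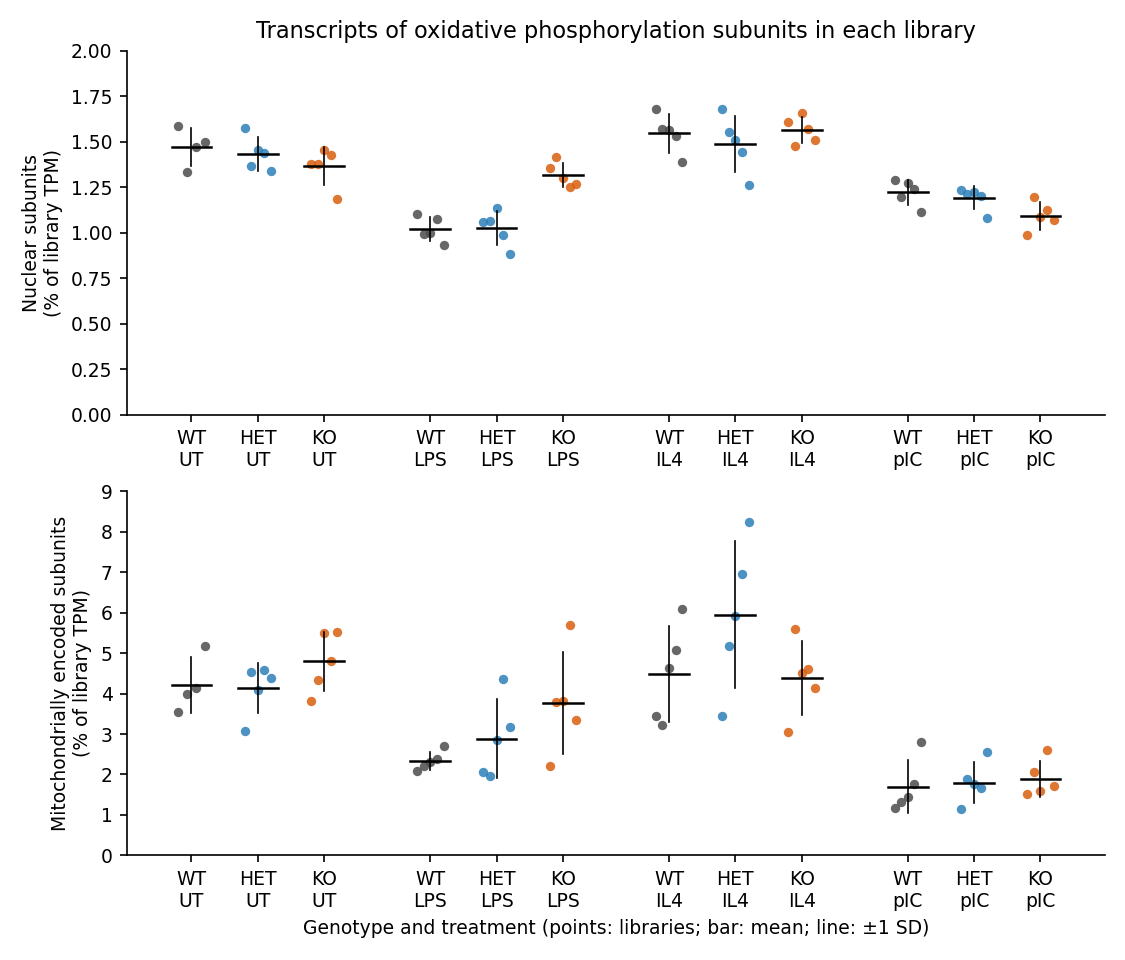
Share of each library's TPM (linear axis from 0) held by the nuclear subunits (top) and by the mitochondrial genes (bottom), for each genotype and treatment. Points are libraries, bars are means and lines show the SD. Nuclear shares of the KO libraries with LPS (1.25% to 1.42%) lie above those of WT (0.934% to 1.10%) and HET (0.883% to 1.14%), while mitochondrial shares spread widely within groups and overlap.

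Under LPS, subunits of all 5 complexes were higher in KO than in WT. Of 82 nuclear members tested, 56 were higher (68.3%) and 0 lower at an adjusted p under 0.05 (limma, all genes tested), where 14.4% of all 15908 genes tested were higher and 13.2% lower. Their median log2 difference was 0.37, against 0.01 over all genes. By complex, 25 of 37 rose in complex I, 3 of 4 in complex II, 4 of 8 in complex III, 9 of 16 in complex IV and 15 of 17 in complex V. In 45 of the 82, every KO library lay above every WT library, as in 7.56% of all genes. Median-of-ratios scaling gave 55 nuclear calls and quantile normalization 69, and 53 held under all 3 scalings.

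Uqcr11, a small subunit of complex III, was at 85.5, 97.6, 98.3, 99.7 and 106 TPM in the WT libraries with LPS and at 89.8, 95.7, 106, 109 and 129 in HET. In KO with LPS it was at 154, 156, 164, 169 and 202 TPM. All KO libraries were above all others, by a log2 difference of 0.78 ± 0.10 from WT (SE, adjusted p = 5.6e-08). Its untreated range was 199 to 247 TPM in WT and 187 to 248 in KO, so KO with LPS stayed mostly below the untreated range and WT with LPS lay far below it.

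Accessory subunits of complex I gave 22 of its 25 calls. Ndufb2, in the membrane arm, was at 43.5, 46.5, 46.9, 46.9 and 47.2 TPM in WT with LPS and at 67.8, 73.3, 74.6, 74.8 and 97.1 in KO (log2 difference 0.72 ± 0.15, adjusted p = 0.000128). HET libraries ran from 29.9 to 59.7 TPM and did not reach the KO values either. Ndufb4c, whose symbol marks a copy of Ndufb4 that may share its reads, gave the largest difference in complex I (0.73 ± 0.08), and Ndufc1 differed by 0.65 ± 0.12. By gene family, 12 of 13 Ndufb and Ndufc genes were higher with a median of 0.49, and 7 of 12 Ndufa genes with a median of 0.32.

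The catalytic core of complex I gave the other 3 calls. Of the 7 nuclear core subunits, many of which carry flavin or iron-sulphur clusters, 3 were higher with a median of 0.20 (0.12 to 0.46), beside 22 of 30 accessory subunits with a median of 0.43 (-0.32 to 0.73). The ranges overlapped, and the gap between these groups was not tested. Ndufs1 differed by 0.29 ± 0.09 (adjusted p = 0.0108) and Ndufs8 by 0.46 ± 0.13 (adjusted p = 0.00702). Ndufv1, which binds NADH, gave 0.20 ± 0.14 (adjusted p = 0.348). Ndufs4, an accessory subunit near that site, gave -0.10 ± 0.12 (adjusted p = 0.629), the lowest estimate in complex I among members reaching 5 TPM.

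In complex II, Sdha, the flavoprotein that oxidises succinate, was at 84.8, 85.8, 90.3, 91.9 and 99.7 TPM in WT with LPS and at 105, 110, 112, 129 and 141 in KO. The groups did not overlap (0.39 ± 0.07, adjusted p = 4.31e-05). Its iron-sulphur partner Sdhb differed by 0.36 ± 0.09 and the membrane anchor Sdhd by 0.33 ± 0.07, while the other anchor, Sdhc, gave 0.26 ± 0.13 (adjusted p = 0.124). In complex III, Uqcrh differed by 0.38 ± 0.05 and Uqcrb by 0.31 ± 0.06. The core proteins Uqcrc1 and Uqcrc2 (0.16 ± 0.08 and 0.09 ± 0.07) and the Rieske protein Uqcrfs1 (0.25 ± 0.10, adjusted p = 0.0602) did not pass.

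In complex IV, Cox6c was at 197, 212, 227, 234 and 234.8 TPM in WT with LPS and at 283, 298, 317, 320 and 348 in KO, without overlap (0.50 ± 0.08, adjusted p = 1.63e-06). Cox7b differed by 0.59 ± 0.10, Cox8a by 0.43 ± 0.10, Cox5a by 0.33 ± 0.09 and Cox6b1 by 0.28 ± 0.07. Cox7a2l, which joins complexes III and IV into supercomplexes, gave 0.18 ± 0.07 (adjusted p = 0.0702). In complex V, Atp5e, the epsilon subunit of the central stalk, was at 179, 204, 211, 215 and 223 TPM in WT and at 280, 292, 305, 327 and 336 in KO, without overlap (0.58 ± 0.12, adjusted p = 0.000158). Of the 3 genes for the same c-ring protein, Atp5g1 differed by 0.66 ± 0.16 and Atp5g3 by 0.41 ± 0.10, and Atp5g2 gave 0.39 ± 0.19 (adjusted p = 0.128). Atp5b, the catalytic beta subunit, gave 0.24 ± 0.11 (adjusted p = 0.114).

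**Figure D2:**
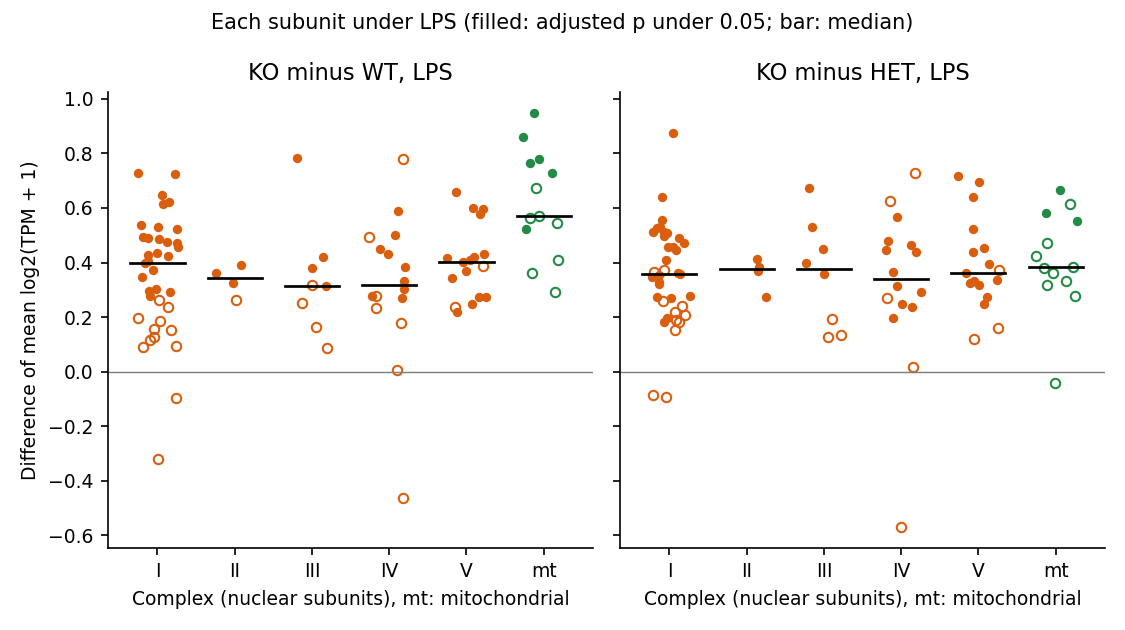
Log2 differences between genotypes under LPS for each subunit tested, by complex for nuclear genes and in a separate column for the mitochondrial genes; filled points passed an adjusted p of 0.05 and bars are medians. Against WT, 56 of 82 nuclear members and 6 of 13 mitochondrial genes were higher in KO, and 0 were lower.

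HET carries Cre and 1 intact Tbk1 allele, so that KO against HET holds Cre in common. In this comparison 60 of 82 nuclear members were higher in KO (73.2%) and 0 lower, against 12.5% and 11.5% of all genes, with a median of 0.36. Every KO library lay above every HET library in 39 of them, as in 6.5% of all genes. Complex II was called in all 4 of its genes, with Sdhc at 0.38 ± 0.13 and Sdha at 0.27 ± 0.07. Ndufb2 gave the largest difference (0.88 ± 0.15), followed in complex V by Atp5e (0.72 ± 0.12). HET and WT with LPS did not differ in any of the 82 members after adjustment (limma), with 3 higher and 0 lower at an unadjusted p under 0.05, and 0.0126% of all genes were called higher and 0% lower there. Both comparisons share the same KO libraries.

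The change from untreated to LPS was also tested between genotypes. The LPS response of KO exceeded that of WT in 52 of 82 nuclear members (63.4%) and fell short of it in 0, against 9.36% and 7.03% of all genes, with a median of 0.49 on the log2 scale against 0.12 for all genes. Relative to HET it was larger in 48 members (58.5%) and smaller in 0, against 7.69% and 6.15%. The responses of HET and WT differed in 0 members (limma; 4 above and 0 below at an unadjusted p under 0.05; 0% of all genes were called). The largest differences from WT among members named by the rule were in Ndufb2 (0.97 ± 0.21), Atp5g1 (0.92 ± 0.23), Uqcr11 (0.87 ± 0.15) and Atp5e (0.76 ± 0.17). For Cox7a2l, the TPM value fell by 0.89 ± 0.08 in WT and by 0.85 ± 0.07 in KO with LPS, and the difference was 0.03 ± 0.11 (adjusted p = 0.898). With median-of-ratios scaling, 42 members exceeded WT and 46 exceeded HET, without a share of all genes beside these counts.

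Whether LPS lowered the nuclear subunits within WT or HET depended on the scaling. On TPM, 71 of 82 members fell with LPS in WT (86.6%) and 1 rose (Ndufs6b, whose call was lost without untreated WT replicate 1 or 4 and without WT LPS replicate 1, 2 or 4), against 61.9% of all genes lower and 13.9% higher, and the members' median of -0.54 was close to the -0.59 of all genes. Median-of-ratios scaling brought the median of all genes to -0.06. Under it 33 members rose and 11 fell, against 31.6% and 32.3% of all genes. Quantile normalization (median of all genes -0.15) gave 1 and 68. No share of all genes is given beside that pair, so no excess can be read from it. In HET, TPM gave 70 lower and 1 higher (59.7% and 14.3% of all genes). The 1 higher was Uqcrb, not called without HET LPS replicate 3 or untreated HET replicate 5. Median-of-ratios scaling gave 13 lower and 33 higher in HET, also without a share of all genes beside them. In every WT library with LPS, 60 members lay below every untreated WT library, as did 53.0% of all genes.

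In WT, 11 nuclear members fell under all 3 scalings: Ndufa1, Ndufb10, Ndufb11, Ndufs1 and Ndufs8 of complex I, Uqcr11 and Uqcrh of complex III, Ndufa4, Ndufa4l2 and Cox7a1 of complex IV, and Atp5g2 of complex V. Ndufs8, an iron-sulphur subunit, was at 88.2, 90.1, 96.1 and 113 TPM in untreated WT and at 37.0, 46.9, 47.7, 52.1 and 58.7 with LPS, without overlap. Its difference was -0.99 ± 0.14 on TPM and -0.32 with median-of-ratios scaling. Cox5a, by contrast, was at 194 to 237 TPM untreated and at 198 to 236 with LPS in WT (0.01 ± 0.10, adjusted p = 0.945). These Cox5a values are on TPM alone, where its ranges overlapped, and its change in WT under the other scalings is not given here.

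In KO, fewer members fell with LPS. On TPM, 21 of 82 fell (25.6%) and 11 rose (13.4%), against 56.5% and 13.1% of all genes, and the members' median was -0.06 against -0.44. With median-of-ratios scaling 62 rose and 2 fell, where 29.4% of all genes rose and 29.1% fell. The 10 members that rose under all 3 scalings were Ndufa11, Ndufc1 and Ndufs6 of complex I, Sdhd of complex II, Uqcrb and Uqcrq of complex III, Cox5a, Cox7a2 and Cox7b of complex IV, and Atp5o of complex V, whereas Ndufb11 and Cox7a2l fell under all 3. Cox5a went from 157, 186, 201, 201 and 203 TPM in untreated KO to 241, 260, 273, 298 and 309 with LPS, without overlap (0.54 ± 0.09, adjusted p = 3.02e-06).

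**Figure D3:**
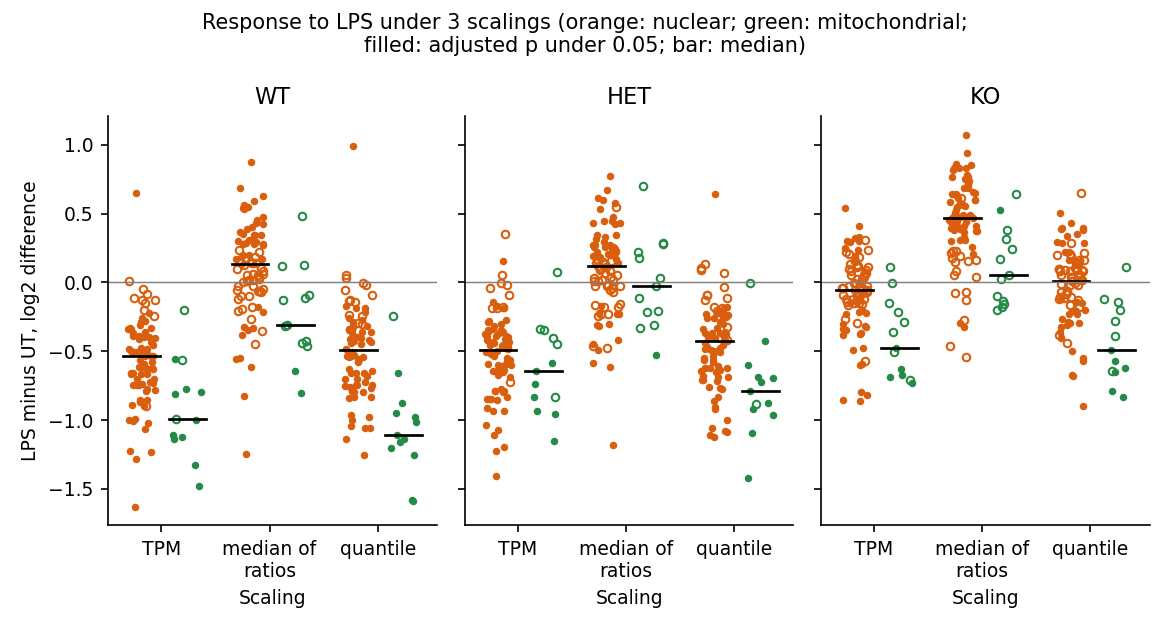
Log2 change with LPS of each subunit in WT, HET and KO under TPM, median-of-ratios scaling and quantile normalization; filled points passed an adjusted p of 0.05 and bars are medians. In WT the nuclear members moved from 71 lower and 1 higher on TPM to 11 lower and 33 higher with median-of-ratios scaling, and in KO from 21 lower and 11 higher to 2 lower and 62 higher.

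A ratio within a library does not depend on its scaling. The summed TPM of nuclear members was divided by that of 78 genes of the mitochondrial ribosome, whose products translate the mitochondrial genes, a ratio that was chosen after values had been seen. It was 4.13 to 4.17 in untreated WT and 3.18 to 3.32 in WT with LPS, without overlap. In HET it was 3.95 to 4.34 untreated and 3.08 to 3.29 with LPS. In KO it was 3.91 to 4.31 untreated and 3.65 to 3.97 with LPS, so KO with LPS overlapped untreated KO and lay above all WT and HET libraries with LPS. With IL4 all genotypes lay between 3.92 and 4.57. Relative to a list of tricarboxylic acid cycle genes the ratio was 8.37 to 8.65 in WT with LPS and 8.72 to 10.4 in KO with LPS, while HET with LPS, at 7.88 to 9.39, overlapped both and untreated WT was at 8.05 to 8.49. In the pIC table the ratio to the mitochondrial ribosome was 3.16 to 3.46 in WT, 3.17 to 3.46 in HET and 3.37 to 3.77 in KO.

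**Figure D4:**
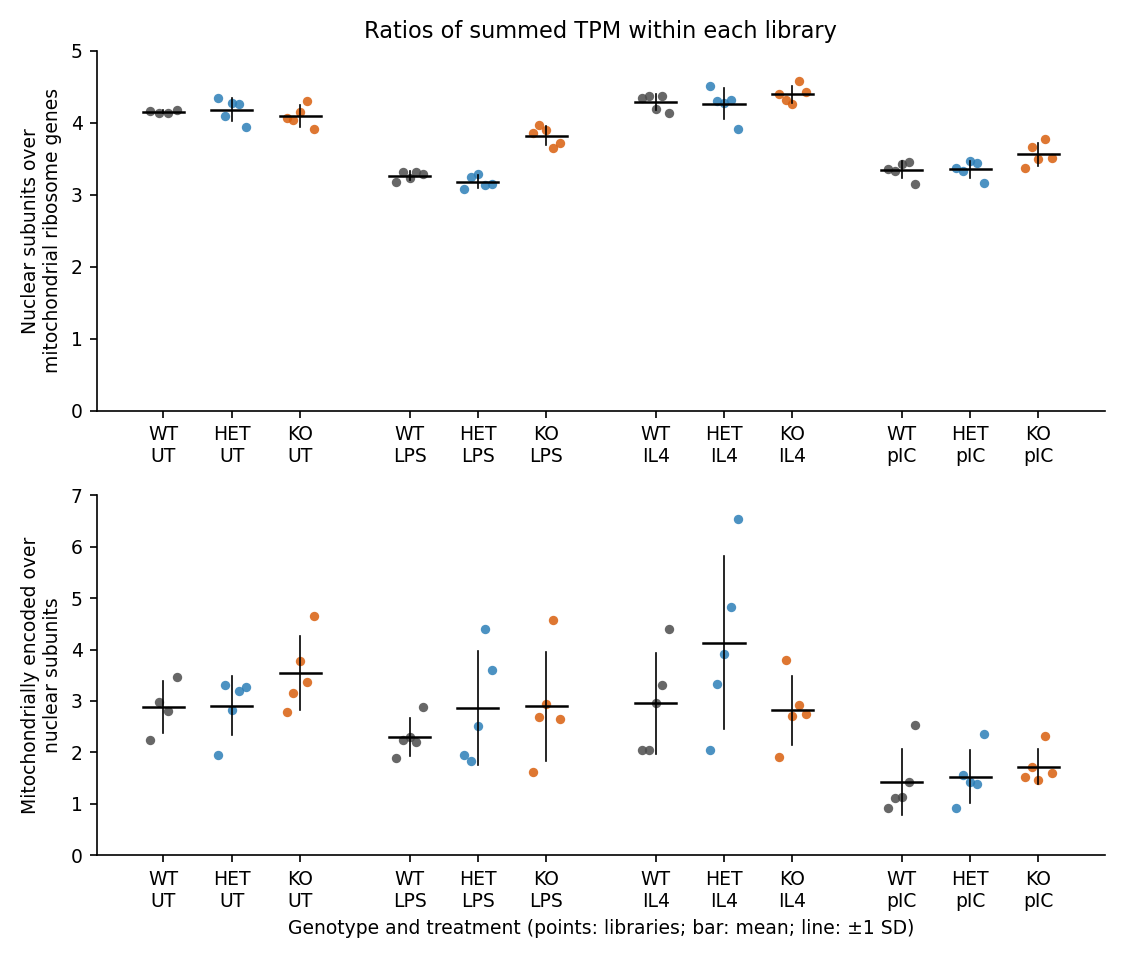
Ratios of summed TPM within each library, by genotype and treatment: nuclear subunits over mitochondrial ribosome genes, and mitochondrial over nuclear subunits. Points are libraries, bars are means and lines show the SD. The first ratio is 3.18 to 3.32 in WT with LPS and 3.65 to 3.97 in KO with LPS, while the second overlaps between these groups (1.89 to 2.89 and 1.63 to 4.57).

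The mitochondrial genes spread widely within groups. All lie on chromosome M, mt-Nd1 at 2751 to 3707, mt-Co3 at 8607 to 9390 and mt-Cytb at 14145 to 15288 on the plus strand (GRCm38). Under LPS, 6 of 13 were higher in KO than in WT and 0 lower: mt-Nd1 (0.95 ± 0.21, adjusted p = 0.000424), mt-Co3 (0.86 ± 0.19), mt-Nd2 (0.78 ± 0.19), mt-Cytb (0.76 ± 0.19), mt-Nd4 (0.73 ± 0.20) and mt-Nd5 (0.52 ± 0.20). The first 5 were called under all 3 scalings. The estimates of all 13 were above 0. The count was 10 without KO LPS replicate 1.

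mt-Nd1, a core subunit of complex I, was at 2022, 2175, 2271, 2297 and 2327 TPM in WT with LPS. In KO with LPS it was at 2593, 4166, 4284, 4578 and 6762 TPM, above all WT libraries but with a wide spread. HET libraries with LPS ran from 1962 to 4815 TPM and overlapped both genotypes. mt-Co3, a core subunit of complex IV, was at 1298, 1422, 1608, 1660 and 2284 TPM in WT and at 2091, 2753, 2890, 3147 and 4252 in KO, with an overlap of 1 library on each side. Against HET, 3 mitochondrial genes were higher in KO (mt-Co3, mt-Cytb and mt-Nd1, by 0.67 ± 0.19, 0.58 ± 0.19 and 0.55 ± 0.21) and 0 lower. That count became 0 with median-of-ratios scaling, 7 with quantile normalization, 0 without HET LPS replicate 2, 1 without HET LPS replicate 1, KO LPS replicate 2 or KO LPS replicate 4, 5 without HET LPS replicate 4 and 6 without KO LPS replicate 1.

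The LPS response of the mitochondrial genes differed between KO and WT in 0 of 13 (limma; 6 above and 0 below at an unadjusted p under 0.05), with a median of 0.62. With the replicate number as a block, 5 of 13 were called above WT. Cultures of the same number deviated together in UT and LPS within each of these genotypes. Between WT and KO the correlations of these deviations were 0.054 to 0.206 in UT and -0.07 to 0.434 with LPS. The count was 4 without KO LPS replicate 1 and 1 without KO LPS replicate 5. In WT, LPS lowered 10 of 13 on TPM (76.9%, beside 61.9% of all genes), with a median of -0.99 against -0.59, and mt-Cytb (-1.48 ± 0.20) and mt-Nd4 (-1.32 ± 0.22) fell under all 3 scalings. In HET 7 fell on TPM (53.8%) and in KO 5 (38.5%). These shares were below those of all genes that fell (59.7% and 56.5%). The summed mitochondrial to nuclear ratio was 2.24 to 3.46 in untreated WT and 1.89 to 2.89 in WT with LPS, 1.84 to 4.41 in HET with LPS and 1.63 to 4.57 in KO with LPS, and all these ranges overlapped. In the pIC table it was 0.914 to 2.52 in WT, 0.923 to 2.36 in HET and 1.46 to 2.32 in KO.

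The mitochondrial ribosomal RNA genes were added after values were seen. mt-Rnr1 was at 580, 623, 653, 716 and 832 TPM in WT with LPS and at 385, 387, 406, 463 and 494 in KO, so that every KO library lay below every WT library. mt-Rnr2 was at 759 to 1195 TPM in WT and at 599 to 1274 in KO and overlapped. Libraries were made with an mRNA kit, per the labels, and the part of that selection in these values was not tested.

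Ndufa4, the complex IV subunit that the inducible protein of AA467197 can replace, was at 266 to 344 TPM in untreated WT. With LPS it was at 127, 133, 156, 172 and 178 TPM in WT and at 182, 186, 216, 229 and 231 in KO, without overlap (0.45 ± 0.14, adjusted p = 0.0108). HET libraries with LPS ran from 106 to 181.5 TPM, just below the lowest KO library (182.3). Its LPS response differed between KO and WT by 0.58 ± 0.20 (adjusted p = 0.0406).

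AA467197, the mouse counterpart of C15orf48, is known to be induced in inflammation. It was at 0.796, 0.839, 1.12 and 1.77 TPM in untreated WT and at 179, 213, 280, 323 and 457 in WT with LPS. In KO with LPS it was at 47.7, 60.7, 88.4, 213 and 227 TPM, overlapping the lower WT libraries. KO differed from WT by -1.39 ± 0.38 on the log2 scale (adjusted p = 0.00403) and from HET by -1.06 ± 0.38 (adjusted p = 0.034), and its LPS response differed from that of WT by -2.36. The ratio of AA467197 to Ndufa4 in a library was 0.0024 to 0.0051 in untreated WT, 1.04 to 3.598 in WT with LPS and 0.208 to 1.25 in KO with LPS. In the pIC table AA467197 was at 374 to 560 TPM in WT and 174 to 628 in KO (-0.40 ± 0.27, adjusted p = 0.372), and Ndufa4 at 114 to 227 and 156 to 211.

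**Figure D5:**
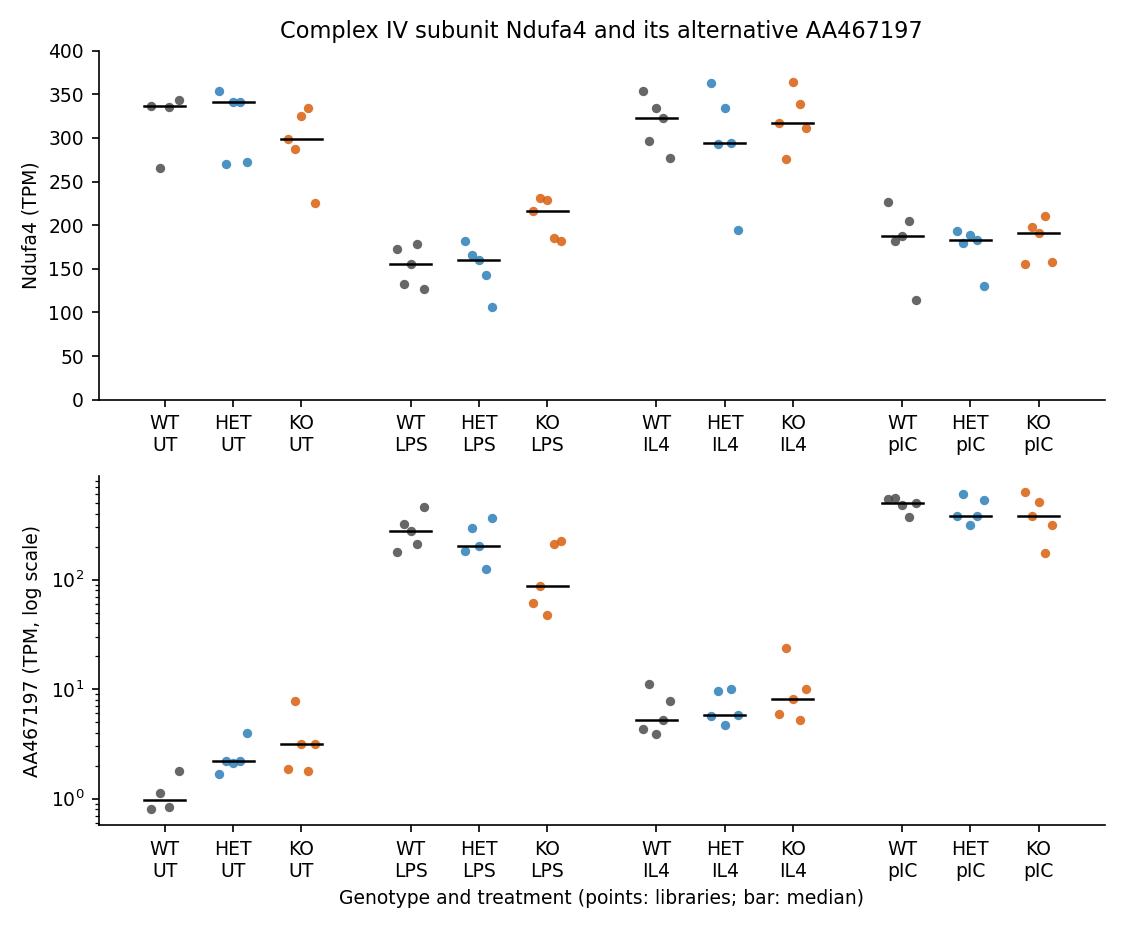
TPM of Ndufa4 (top, linear axis from 0) and AA467197 (bottom, log axis) in each library by genotype and treatment; points are libraries and bars are medians. Under LPS every KO library is above every WT library for Ndufa4 (182 to 231 against 127 to 178 TPM), whereas AA467197 is 47.7 to 227 TPM in KO and 179 to 457 in WT.

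Isoforms typical of muscle or of other tissues were low. In untreated WT, Cox6a2 was at 1.27 to 2.18 TPM, Cox7a1 at 3.04 to 4.23, Cox6b2 at 1.44 to 2.22 and Ndufa4l2 at 0.939 to 1.60. With LPS the Cox7a1 libraries of WT ran from 0 to 1.32 TPM (-1.63 ± 0.39), and Ndufa4l2 was listed at 0 in 3 of the 5. KO and WT under LPS did not differ after adjustment in any of these 4 genes. Their log2 differences are understated by the added pseudocount of 1 TPM.

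IL4 raised part of the nuclear members in KO. There 15 of 82 rose (18.3%) and 0 fell, against 5.38% and 3.03% of all genes, with a median of 0.18 against -0.06. These were 3 of complex II, 2 of complex III, 5 of complex IV and 5 of complex V, and 0 of the 37 in complex I. Atp5o, the stalk subunit that sets oligomycin sensitivity, was at 154, 165, 167, 176 and 199 TPM in untreated KO and at 212, 223, 228, 229 and 242 with IL4, without overlap (0.40 ± 0.07, adjusted p = 5.73e-05). Sdhb rose by 0.39 ± 0.09, Sdha by 0.26 ± 0.07, Cox8a by 0.41 ± 0.10, Uqcr10 by 0.40 ± 0.10 and Cox5a by 0.38 ± 0.09. In 20 members every library with IL4 was above every untreated one, as in 5.34% of all genes.

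Marker transcripts of other cells also moved with IL4, in every genotype. They are given for KO first. The 10 border macrophage and monocyte markers summed to 375 to 549 TPM in untreated KO and to 903 to 1497 with IL4, without overlap. Of the 8 tested, Ccr2, Cd74, Mrc1 and Ms4a7 rose and Clec4n fell, with Cd74 going from 6.04 to 17.2 TPM up to 283 to 756. F13a1 was at 0.911 to 1.75 TPM in untreated KO and at 0.114 to 0.805 with IL4. Cd163 and Lyve1 stayed at or below 0.426 TPM in both KO groups. The 11 vascular and stromal markers summed to 34.5 to 74.9 and 105 to 155 TPM, also without overlap, and of the 9 tested, Flt1 (17.4 to 31.9 and 91.8 to 127 TPM) and Pecam1 rose. The endothelial marker Cdh5 stayed at or below 1.34 TPM in both groups. The sums of microglial markers in KO overlapped (13328 to 15831 and 15460 to 17590 TPM). In WT and HET the sums of these 2 marker lists rose too, without overlap. The border macrophage and monocyte sum went from 386 to 536 TPM up to 875 to 1096 in WT, and from 374 to 550 up to 986 to 1209 in HET. The vascular and stromal sum went from 30.7 to 42.75 TPM up to 108 to 136 in WT, and from 30.7 to 47.0 up to 115 to 223 in HET. The part of these cells in the subunit values was not tested.

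The IL4 counts moved with the settings. The share of all genes called under each setting is not given beside them, so no excess over all genes can be read from them. In KO, 34 members rose with median-of-ratios scaling (10 of them in complex I), 11 rose and 1 fell with quantile normalization, 29 rose with cultures of the same number paired, and 9 rose without untreated KO replicate 5. Atp5o, Cox5a, Cox6a2, Sdha, Sdhb, Sdhd, Uqcr10 and Uqcrc1 rose under all 3 scalings.

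In WT, 1 member rose with IL4 (Atp5o, 0.25 ± 0.07, adjusted p = 0.0324) and 1 fell (Ndufa6, -0.25 ± 0.06, adjusted p = 0.00806), against 3.68% and 2.63% of all genes. With the pairing of cultures 5 rose, with median-of-ratios scaling 11 rose and 0 fell, and Atp5o was not called without WT replicate 1 or 2 with IL4 or without untreated WT replicate 2, 3 or 4. In HET, Atp5o and Ndufa12 rose and Ndufa6 fell (3.97% and 3.09% of all genes). Leaving out single HET libraries left 1 of the 2 rises in 8 cases.

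Ndufa6, of the complex I matrix arm, was at 169, 170, 181 and 183 TPM in untreated WT and at 135, 143, 147, 156 and 156 with IL4, without overlap. The IL4 responses of KO and WT differed in 0 members (limma; 3 above and 0 below at an unadjusted p under 0.05; 0% of all genes were called), so a larger IL4 effect in KO was not shown. Within the nuclear sum, complex I held 29.1% to 30.4% in untreated libraries of the 3 genotypes and 27.5% to 28.8% with IL4, without overlap. With LPS it held 27.5% to 29.6%. For the mitochondrial genes, IL4 against UT gave 0 calls in each genotype (limma), with 0 or 1 at an unadjusted p under 0.05 in WT and KO and 7 higher in HET, where leaving out HET IL4 replicate 1 gave 5 calls.

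With pIC, the nuclear members that differed were lower in KO. Of 79 nuclear members tested, 12 were lower in KO than in WT (15.2%) and 0 higher, against 8.11% and 3.4% of all 13919 genes tested, with a median of -0.17 against -0.11. They were Ndufa5, Ndufa6, Ndufa8, Ndufa10, Ndufb3, Ndufb10 and Ndufs3 of complex I, Sdhd, Uqcrc1, Uqcrc2, Cox7a2l and Atp5c1. Sdhd was at 93.6, 94.4, 94.5, 97.4 and 99.7 TPM in the WT libraries and at 87.3, 88.6, 94.5, 94.6 and 97.3 in those of HET. KO had 67.5, 68.5, 71.3, 76.4 and 83.8 TPM. All KO libraries lay below the others (-0.38 ± 0.06, adjusted p = 0.00137).

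Ndufs3, a core subunit of complex I, was at 107, 117, 122, 124 and 130 TPM in WT and at 84.6, 85.4, 90.3, 93.4 and 106 in KO with pIC, without overlap (-0.38 ± 0.08, adjusted p = 0.00896). Ndufa5 was at 92.7 to 106 TPM in WT and 69.5 to 84.9 in KO (-0.33 ± 0.07). Groups did not overlap in 11 members, as in 7.05% of all genes. Median-of-ratios scaling left 3 lower (Ndufa5, Ndufs3 and Sdhd), and 7 were lower without WT pIC replicate 3.

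Marker sums also differed between KO and WT with pIC. The 17 microglial markers summed to 9835 to 12266 TPM in WT and to 12772 to 17080 in KO, without overlap. Those higher in KO included C1qb, C1qc, Csf1r, Itgam and Trem2, and Ptprc and Sall1 were lower. The 11 vascular and stromal markers summed to 44.2 to 71.2 and 89.2 to 105 TPM, without overlap, and of the 6 tested, Flt1 was higher (10.8 to 21.0 TPM in WT and 26.6 to 48.2 in KO). Cdh5 was at 1.01 to 1.82 and 1.02 to 4.34 TPM. The sums of border macrophage and monocyte markers overlapped (793 to 934 and 738 to 839 TPM). The part of these cells in the subunit values was not tested.

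Uqcr11, the most different nuclear member of complex III under LPS, was at 115 to 133 TPM in WT and 89.7 to 145 in KO with pIC (-0.02 ± 0.12). Against HET, 5 members were lower in KO (6.33%; 3.6% of all genes) and 0 higher (1.65%). HET and WT with pIC differed in 0 members (limma; 0 at an unadjusted p under 0.05; 0% of all genes). The 13 mitochondrial genes gave 0 calls between the genotypes with pIC (limma; 0 at an unadjusted p under 0.05 for KO against WT), and mt-Nd1 was at 1001 to 2260 TPM in WT and 993 to 2010 in KO.

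In untreated cultures KO and WT differed in 0 nuclear members (limma; 0 higher and 9 lower at an unadjusted p under 0.05), where 0.0126% of all genes were higher and 0.0189% lower. With IL4 they also differed in 0 (1 higher and 0 lower unadjusted; 0.0251% and 0.0189% of all genes). HET and WT differed in 0 members in untreated cultures (0.0126% of all genes higher, 0% lower) and with IL4 (0.0126% and 0%). KO and HET differed in 0 members untreated (0 higher and 2 lower unadjusted; 0% and 0.00629% of all genes) and with IL4 (2 higher and 0 lower unadjusted; 0% and 0.00629%).

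Other mitochondrial genes were followed by list, and their counts under LPS are to be read against the 14.4% of all genes that were higher in KO than in WT and the 13.2% that were lower. Of 46 assembly factors and unmatched subunits, 14 were higher (30.4%) and 3 lower (6.52%), with a median of 0.24. Pet100, an assembly factor of complex IV, differed by 0.85 ± 0.14 and Cox18, which inserts a complex IV core subunit, by -0.55 ± 0.15. Cox4i1 differed by 0.33 ± 0.05 (adjusted p = 1.06e-06). For the tricarboxylic acid cycle 10 of 23 were higher (43.5%) and 1 lower (4.35%; median 0.22), with the mitochondrial isocitrate dehydrogenase Idh2 at 0.77 ± 0.11 and the phosphatase Pdp1 at -0.39 ± 0.09. In the mitochondrial ribosome 21 of 78 were higher (26.9%) and 7 lower (8.97%; median 0.10), with Mrpl23 at 0.83 ± 0.22 and Mrps22 at -0.53 ± 0.11.

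Among 30 genes that maintain and transcribe mitochondrial DNA, 5 were higher in KO (16.7%, near the 14.4% of all genes) and 1 lower (3.33%) under LPS, with a median of 0.10. They included Hsd17b10, part of mitochondrial RNase P, at 0.69 ± 0.09 and the nuclease Pnpt1 at -0.53 ± 0.10. Of 14 regulators of mitochondrial biogenesis, 1 was higher (7.14%) and 5 lower (35.7%; median -0.18). The coactivator Ppargc1b was at 0.227, 0.298, 0.314, 0.586 and 0.703 TPM in WT with LPS and at 1.77, 2.25, 2.51, 3.07 and 3.09 in KO, without overlap (1.31 ± 0.14, adjusted p = 2.08e-09). Its WT values were all below the pseudocount of 1 TPM. Esrra, Hif1a, Nrf1, Ppard and Sirt1 were lower, Esrra by a difference of -0.32 ± 0.09. Of the members with a motif in their promoter, 12 of 16 with NRF1, 14 of 16 with ETS and 4 of 6 with YY1 were higher in KO under LPS, beside 56 of 82 members in all.

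With LPS in WT, 28 of 46 assembly factors and unmatched subunits fell (60.9%) and 4 rose (8.7%) on TPM, near or below the 61.9% and 13.9% of all genes. In KO 16 fell (34.8%) and 6 rose (13.0%), where 56.5% of all genes fell and 13.1% rose. The copper chaperone Cox17 rose in WT by 1.39 ± 0.09 and in KO by 1.21 ± 0.08. With pIC, 31 of 78 mitochondrial ribosome genes were lower in KO than in WT (39.7%) and 0 higher (median -0.28), against 8.11% and 3.4% of all genes and a median of -0.11, with Mrpl38 lowest at -0.70 ± 0.12. Of 45 assembly factors and unmatched subunits 11 were lower (24.4%) and 0 higher, with Sdhaf1, an assembly factor of complex II, at -0.72 ± 0.13. For the tricarboxylic acid cycle 5 of 23 were lower (21.7%) and 1 higher (4.35%), for maintenance and transcription of mitochondrial DNA 4 of 30 were lower (13.3%) and 0 higher, and the 14 regulators of biogenesis gave 0 calls (limma; Sirt1 was lower at an unadjusted p of 0.0135).

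Markers of other macrophages moved with the result under LPS. The 10 border macrophage and monocyte markers summed to 539 to 829 TPM in WT, 689 to 1644 in HET and 1976 to 3100 in KO, without overlap between KO and the others. Of the 8 tested, 5 were higher in KO than in WT (Cd74, Clec4n, Ly6c2, Mrc1 and Pf4) and 1 lower (Ms4a7). Pf4 was at 84.1 to 197 TPM in WT and 762 to 1301 in KO, and Clec4n at 58.3 to 247 and 537 to 1801. Ly6c2 was at 0 to 1.74 and 4.10 to 24.1 TPM and Mrc1 at 0.8 to 1.80 and 2.89 to 11.9. Of the 17 microglial markers, 6 were higher in KO (Csf1r, Cx3cr1, Olfml3, P2ry12, Tmem119 and Trem2) and 1 lower (Ptprc), and their sum was 3848 to 5182 TPM in WT and 3530 to 7581 in KO. Of the oligodendrocyte markers 0 were called between KO and WT under LPS. The part of these markers' cells in the subunit values was not tested.

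Transcript length also went with the members. The 77 nuclear members with a length had a median of 645 nucleotides, and 59 of them were under 1000, against a median of 2193 over 12867 genes tested. Across genes, which are not independent replicates, Spearman's rho between length and the KO to WT difference under LPS was -0.155 over those genes and -0.197 within the members. For KO against HET under LPS it was -0.158 and -0.098. For KO against WT with pIC it was 0.117 over 11904 genes and -0.133 within 75 members. The part of length in the differences was not tested.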

How the data were processed

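RNA from 59 cultures was sequenced. The authors deposited TPM per gene in 2 tables (UT, LPS and IL4; pIC). Per the submitters' processing notes, FastQC, Trimmomatic, DRAGEN and Picard were used with mm10. No source used here gives the strand setting or the depth. Overlapping genes (mt-Nd5 and mt-Nd6, mt-Atp8 and mt-Atp6), copies (Ndufb4c, Ndufs6b) and nuclear copies of mitochondrial DNA may share reads.

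Per table, the genes tested had to reach 1 TPM in 4 or more libraries: 15908 (82 nuclear members, without Ndufa11b) and 13919 (79, also without Cox6b2, Ndufa4l2 and Ndufs6b). limma 3.58.1 (R 4.3.3, trend) was fitted to log2(TPM + 1) with a mean per group, separately in each table, for 24 comparisons. P-values were adjusted over all genes tested by Benjamini-Hochberg and called at 0.05, and the code was tested on simulated data. Sums and ratios used Python 3.11.15 and pandas 2.3.3. The p-values measure the spread between cultures within groups, and those of the main fits leave the replicate numbers out.

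Members and lists were chosen with earlier results of these data known. Named genes were all mitochondrial members, set core and isoform genes, each complex's highest and lowest member reaching 5 TPM, and each pathway list's highest and lowest called gene; Ndufs8, Uqcrc2, Cox7b, Ndufc1 and others given in the text were chosen after their values were seen. 1 gene that the rule names is not reported here. Cultures of the same number paired in UT and IL4 and in UT and LPS of WT and of KO, and in UT of WT and HET (every correlation of deviations above 0.1, lowest 0.117), per the labels' replicate numbers. In the other pairs of groups some correlations fell below 0.1. Their means, 0.087 to 0.285, still lay above those between cultures of other numbers (-0.082 to 0.008). Alternatives were a pseudocount of 0.1, no filter, median-of-ratios scaling, quantile normalization, TPM rescaled without mt- genes, fits of only the groups compared, the replicate block and leaving out each library. Most counts under them stand without the share of all genes called under the same setting. Such counts show how far a result moved, not an excess over all genes.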

Additional observations from a re-analysis of the deposited data

Results flagged for a closer look

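A library far from the others was looked for in 144 tests, each of 1 measure in 1 group of 4 or 5 libraries. In 7 tests there was one, and chance gives about 1 in 20. The tests reuse the same 59 libraries, and some measures overlap. The summed nuclear members of HET pIC replicate 5 stood at 10820 TPM, below the other 4 at 12040 to 12340. Ndufa4 was at 129.8 TPM in that library, against 180.0 to 193.8, and at 265.5 in untreated WT replicate 2, against 335.8 to 344.0. AA467197 was high in untreated HET replicate 5 (3.962 TPM, others 1.695 to 2.21), in untreated KO replicate 2 (7.728, others 1.771 to 3.158) and in KO IL4 replicate 2 (23.61, others 5.28 to 9.937). Cox7b was at 175.6 TPM in WT LPS replicate 1, against 122.8 to 134.1.

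The response to LPS differed between genotypes in the test of the difference itself (limma): it was higher in KO than in WT for 52 nuclear members and higher than in HET for 48. As log2 differences of the KO response from the WT response, Ndufs1 gave 0.40 and Ndufb2 0.97 in complex I, and Sdha 0.48, Sdhb 0.49 and Sdhd 0.32 in complex II. Uqcr11 of complex III gave 0.87. In complex IV, Cox5a gave 0.53, Cox6c 0.56, Ndufa4 0.58, Cox6a1 0.50, Cox7a2 0.44, Cox8a 0.54 and Cox4i1 0.31. In complex V, Atp5e gave 0.76, Atp5g1 0.92 and Atp5g3 0.62. AA467197 gave -2.36 and the targeted gene Tbk1 -1.07.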

How the results depend on the processing

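Higher nuclear members in KO under LPS stayed between 50 and 57 against WT and between 47 and 61 against HET when single libraries were left out. For the difference in LPS response the ranges were 44 to 59 (from WT) and 37 to 56 (from HET), and for the mitochondrial genes 0 to 4 from WT. TPM rescaled without mt- genes moved no count of members by over 1.5 times.

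Median-of-ratios scaling moved the counts of the LPS response most: for nuclear members it gave WT 33 higher with 11 lower, HET 33 higher with 13 lower, and KO 62 higher with 2 lower, and mitochondrial genes 2 lower in WT, 1 lower in HET, and 1 higher and 0 lower in KO. Under it IL4 gave 11 higher and 0 lower in WT, 0 lower in HET and 34 higher in KO, KO against HET under LPS gave 0 mitochondrial genes, and pIC gave 3 lower against WT and 3 against HET. Quantile normalization gave 2 higher with IL4 in WT, 1 mitochondrial gene higher with IL4 in HET, 1 nuclear member lower with IL4 in KO, and 11 mitochondrial genes lower with LPS in HET. For KO against HET under LPS it gave 7 mitochondrial genes higher and 1 nuclear member lower, and for the LPS response of the mitochondrial genes 7 above WT and 2 above HET. A pseudocount of 0.1 gave 0 higher with LPS in WT and 1 lower in KO against HET under LPS. No filter gave 0 higher with LPS in WT and 1 higher with IL4 in HET. Fits of only the groups compared gave 0 higher with IL4 in WT, 0 mitochondrial genes for KO against HET under LPS, 2 for the LPS response of KO against WT, and with pIC 7 lower against WT and 3 against HET. The cause of these shifts was not tested.

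With the replicate block, IL4 raised 5 members in WT and 29 in KO, where the numbers paired cultures. The block gave 5 mitochondrial genes for the LPS response of KO against WT, whose numbers paired UT and LPS within each genotype but not KO with WT. It left HET against WT untreated, also paired, at 0 members. Elsewhere cultures of the same number deviated together on average, though not in every pair. There the block gave 10 mitochondrial genes higher in KO than in WT and 6 higher than in HET under LPS. In HET it gave 11 mitochondrial genes lower with LPS, 8 higher with IL4, and 2 nuclear members lower with IL4. With pIC the block gave 8 nuclear members lower in KO than in HET. It moved no other count by over 1.5 times.

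Leaving out single libraries gave 0 to 1 higher with LPS in WT and 0 to 1 in HET, 0 to 1 higher with IL4 in WT, 1 to 2 in HET and 9 to 17 in KO. Mitochondrial counts ran from 5 to 10 for KO against WT and from 0 to 6 for KO against HET under LPS, and from 0 to 5 with IL4 in HET. With pIC, 7 to 18 were lower in KO than in WT.

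Of the single genes, 34 reversed, all with LPS against UT under median-of-ratios scaling. A reversal here is a change of sign where either fit passed an adjusted p of 0.05 (limma). Values near 0 below need not be called rises. In WT they became Ndufv1 0.16, Ndufs4 0.59, Sdhb 0.30, Sdhc 0.14, Sdhd 0.55, Uqcrc1 0.28, Uqcrb 0.63, Cox6c 0.084, Cox6a1 0.056, Cox7a2 0.56, Cox6b1 0.29, Cox8a 0.20, Atp5b 0.40, Atp5e 0.024, Atp5g1 0.060, Atp5g3 0.18, Atp5md 0.53 and mt-Co1 0.12. In HET they became mt-Co3 0.034, Sdhd 0.43, Cox5a 0.58 and Atp5md 0.61. In KO they became Ndufv1 0.42, Sdha 0.15, Sdhc 0.41, Uqcrc1 0.45, Uqcrfs1 0.15, Cox6c 0.50, Ndufa4 0.042, Cox6a1 0.41, Cox6b1 0.41, Cox4i1 0.14, mt-Nd1 0.52 and mt-Nd2 0.055. All were below 0 on TPM. TPM keeps no depth, so the precision of low members cannot be given.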
